A study of Homo sapiens with 6 samples.

Results

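The genes described here are 45 genes with nucleolar symbols, chosen by symbol alone from the 61267 genes of the deposited count table. All but NOL3 and NOL4 are known factors of ribosome assembly, and all 45 are called factors below. The rule took the UTP, NOP, RRP and NOL series with a number in the symbol, together with BOP1, FBL, NPM1, NCL, DKC1, NHP2, GAR1, PES1 and WDR12. It used no measured value, and all 45 passed the filter on low counts. RNA was sequenced from THP-1, an established line of leukemic human monocytes, kept for 48 h with 100 ng/ml of the phorbol ester PMA, which makes such cells adherent and macrophage-like. The labels give this line and this treatment for all 6 libraries, and set them apart as NC in 3 and KD in 3. The NC libraries also hold genes of HEK293-type cells that are near 0 in KD (values below), so that the cells behind the NC libraries are in doubt, and every difference given here is one between libraries with these labels. The labels name neither the target of KD nor how it was reached, nor whether libraries of the same group stem from different cultures. The p-values therefore speak of the spread among these libraries, and that spread may be technical. The series title names METTL1, the tRNA 7-methylguanosine methyltransferase, whose level was 14.8 ± 1.02 in NC against 13.7 ± 0.605 in KD, in the CPM defined below (mean ± SD over 3 libraries a group; edgeR adjusted p = 0.216). METTL1 was lower in KD with library sizes alone (-0.29 as log2 fold change, edgeR adjusted p = 0.00249) and on the leukocyte scale defined below (-1.31, edgeR adjusted p = 3.35e-14). Its partner subunit WDR4 was at 7.27 ± 0.317 and 4.77 ± 0.713 (edgeR adjusted p = 5.04e-05).

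Ribosomes are assembled in the nucleolus. RNA polymerase I makes a long precursor that holds 18S, 5.8S and 28S rRNA, box C/D and box H/ACA small nucleolar ribonucleoproteins modify it, the small subunit (SSU) processome folds and cuts the 18S part, and a separate set of factors builds the 60S subunit around the rest. Nucleolin (NCL) and nucleophosmin (NPM1) are the bulk proteins of the nucleolus. Demand for these factors is high in dividing cells, and MYC is a known activator of many of their genes.

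Levels are given as CPM, a gene's counts over the library's total in units of 1e+06, after scaling by TMM, a method that sets the bulk of all tested genes level between libraries. The libraries held 37628972 to 42970216 counts. Several gene lists moved with the KD label in the same libraries, and their part in the results was not tested. The 14 listed genes of HEK293-type and neural cells, none of them a monocyte marker, summed to 2484 to 2903 CPM in the NC libraries and to 15.5 to 16.3 CPM in the KD libraries. All 14 fell, and 5 of them (LIN28B, ID4, POU3F3, MAGED4B and PAX3) had no count in KD. The 10 monocyte and macrophage markers all had counts in both groups, with sums of 1017 to 1045 CPM in NC and 2014 to 2049 CPM in KD. All 10 were higher in KD on this scale. On a scale set by 79 leukocyte-restricted genes, called the leukocyte scale below, 2 were higher and 5 lower. Of those 79 genes 76 were themselves higher in KD with TMM, with a median log2 fold change of 1.20. The 16 proliferation genes all fell on both scales, from sums of 2405 to 2476 CPM to sums of 945 to 1000 CPM. Of the epithelial markers 4 of 5 tested fell and 0 rose. The remaining marker lists were low, at sums of at most 8.42 CPM for fibroblasts, 15.8 CPM for T and NK cells, 4.78 CPM for B cells and 0.0508 CPM for erythroid cells in any library. In bulk RNA, fewer cells of a type and less RNA per cell cannot be told apart.

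Most of the 45 factors were lower in the libraries labelled KD. At an edgeR adjusted p of 0.05, 32 fell (71.1%, against 40.3% of all 21905 tested genes), 7 rose (15.6%, against 36.2%) and 6 did not pass. All 7 that rose with TMM were below 0 on the leukocyte scale, which lowers genes with counts in both groups by nearly the same amount. There all 7 lay above the median of all tested genes. Either direction together gave 86.7% of the factors and 76.5% of all genes. The groups' CPM did not overlap for 41 of the 45, or 91.1%, against 78.0% of all tested genes. The falls were mostly moderate. A fall of at least 2-fold was found for 9 of the 45, a share near that of all genes, 22.9%, while 0 factors rose by that much (12.6% of all genes). The median log2 fold change, KD over NC, was -0.54 for the factors and -0.05 for all tested genes.

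**Figure D1:**
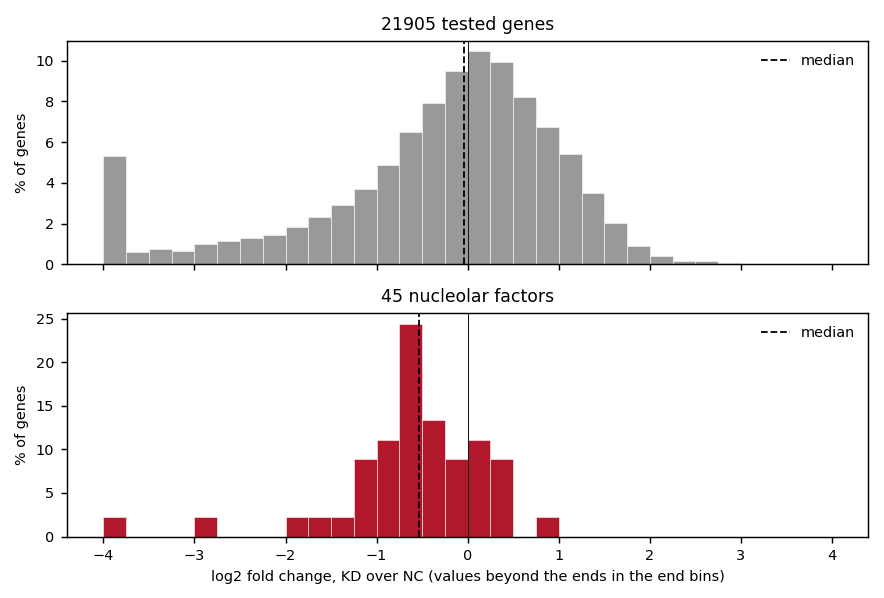
Share of genes (vertical axis, percent) by log2 fold change, KD over NC with TMM (horizontal axis, bins of equal width), for all 21905 tested genes above and the 45 nucleolar factors below, with dashed lines at the medians of -0.05 and -0.54. The factors gather on the lower side, and none lies above 0.90.

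Another scaling of the libraries shifts genes with counts in both groups by nearly the same amount. It thus sets how many factors count as higher or lower, but hardly where they lie among the other genes. With TMM the factors' median minus that of all genes was -0.49 on the log2 scale. The median of all genes itself was -0.23 with library sizes alone, where 37 factors were lower (82.2%, against 47.3% of all genes) and 5 higher (11.1%, against 28.4%). On the leukocyte scale that median was -1.26, all 45 factors were lower (against 83.5% of all genes) and 0 were higher (against 3.45%).

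**Figure D2:**
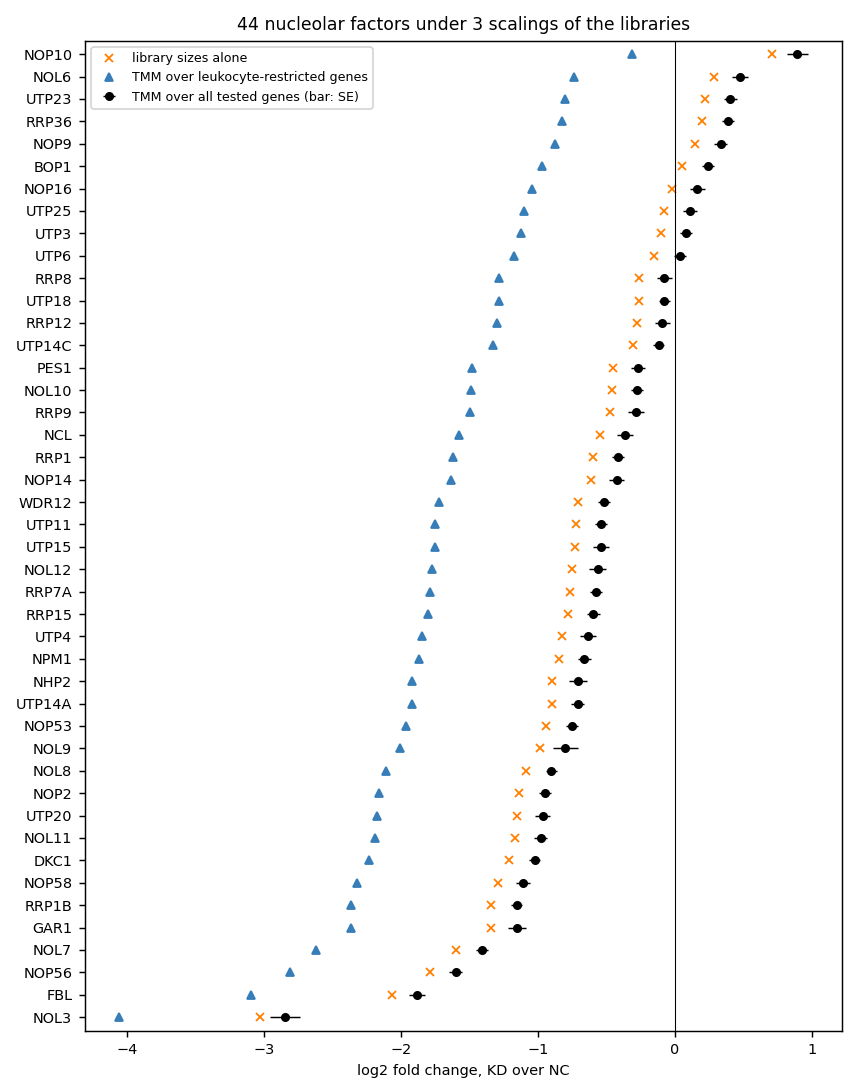
Log2 fold change, KD over NC (horizontal axis), of 44 nucleolar factors (vertical axis, NOL4 left out since it has no count in KD) with TMM over all tested genes (black points, bars are SE), library sizes alone (crosses) and TMM over leukocyte-restricted genes (triangles). A change of scale moves all factors to the left: NOP10, the highest, is at 0.90 with TMM and at -0.31 on the leukocyte scale, and FBL at -1.88 and -3.09.

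Promoter sequence played no part in the choice by symbol. CACGTG, the E-box core read by MYC and related factors and its own reverse complement, was found in the promoter of 15 of the 39 factors with an entry in the RefSeq promoter table (GRCh38.p14; 250 bases before the start and 50 from it on). That is 38.5% of the factors, against 12.3% of 11815 tested protein-coding genes and 7.26% of all 35116 promoters in the table. It was in 11 of the 29 factors that fell, in 2 of the 5 that rose and in 2 of the 5 that did not pass. The other motifs searched, on either strand, were CCGGAA (46.2% of the factors, 32.3% of the tested coding genes and 17.2% of all promoters), CCAAT (38.5%, 43.1% and 34.6%) and GGGCGG (64.1%, 74.5% and 44.95%). A match says that the letters are there, not that a factor binds. Windows of 30 bases around the motif are shown for 6 factors that fell, 2 that rose and 1 that did not pass, in the direction of the gene, with the E-box in capitals.
FBL, fell, chr19:39846356-39846385, minus strand: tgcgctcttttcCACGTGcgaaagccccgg
NOL7, fell, chr6:13615174-13615203, plus strand: gcctgcgctggcCACGTGgaaagaaacacg
GAR1, fell, chr4:109815781-109815810, plus strand: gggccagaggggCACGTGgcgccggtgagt
UTP20, fell, chr12:101280083-101280112, plus strand: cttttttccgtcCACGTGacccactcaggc
NOL8, fell, chr9:92325342-92325371, minus strand: gctccgttgggaCACGTGaccagaagttag
UTP4, fell, chr16:69132621-69132650, plus strand: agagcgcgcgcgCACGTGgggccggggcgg
NOP10, rose, chr15:34343130-34343159, minus strand: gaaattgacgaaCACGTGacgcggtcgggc
NOL6, rose, chr9:33473894-33473923, minus strand: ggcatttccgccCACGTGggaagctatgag
UTP18, not passed, chr17:51260538-51260567, plus strand: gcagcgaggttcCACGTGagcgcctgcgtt

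Of the 15 matches with room for such a window, 12 lay within 50 bases of the start, in 12 genes. MYC itself had 35.6 ± 1.40 CPM in the NC libraries and 44.2 ± 1.20 CPM in the KD libraries, which gave a log2 fold change of 0.31 ± 0.050 (edgeR adjusted p = 4.49e-06), but of -0.90 on the leukocyte scale. MXD1, which competes with MYC for the partner MAX, was at 0.85 ± 0.047 with TMM and at -0.36 on the leukocyte scale (log2 fold change ± SE). MXI1, another such competitor, was at -0.28 ± 0.068.

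With TMM 40.3% of all tested genes were lower, and the median log2 fold change of all was -0.05. The box C/D small nucleolar ribonucleoprotein had the lowest median log2 fold change of the complexes in the set, -1.60, with all 3 of its proteins in the set lower. Its enzyme fibrillarin (FBL; chr19:39834458-39846379, minus strand, GRCh38), which places 2'-O-methyl groups on rRNA, was at 105, 105 and 123 CPM in NC and at 29.4, 29.9 and 31.0 CPM in KD. Every KD library lay below every NC library, at -1.88 ± 0.057 as log2 fold change ± SE (edgeR adjusted p = 1.10e-18). The scaffold protein NOP56 (chr20:2652593-2658393, plus strand) was at 281, 263 and 292 CPM in NC and at 95.9, 91.9 and 88.1 CPM in KD, a log2 fold change of -1.60 ± 0.046 (edgeR adjusted p = 3.95e-20). The groups of NOP56 were likewise far apart. Its scaffold partner NOP58 went from 238 ± 19.7 to 110 ± 1.88 CPM (-1.11 ± 0.049). Within libraries the ratio of NOP58 to NOP56, in counts per kilobase of exon, was 1.29 ± 0.084 in NC and 1.82 ± 0.056 in KD. Of the NOP56 exon bases 9.54% also belong to small RNA genes encoded inside NOP56.

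The box H/ACA particle, which turns uridine into pseudouridine and also stabilises telomerase RNA, was divided. Its enzyme dyskerin (DKC1; chrX:154762742-154777689, plus strand) was at 485, 470 and 501 CPM in NC and at 248, 238 and 230 CPM in KD, with a log2 fold change of -1.02 ± 0.043 (edgeR adjusted p = 7.46e-17). GAR1 (chr4:109815510-109824740, plus strand), a core protein of the particle, was at 26.6, 29 and 26.4 CPM in NC and at 12.9, 11.9 and 12.1 CPM in KD (-1.15 ± 0.068, edgeR adjusted p = 7.25e-14). In both genes every KD library was below every NC library.
NHP2, another core protein, fell from 101 ± 11.2 to 62.1 ± 3.45 CPM (-0.71 ± 0.066), with 28.0% of its exon bases shared with RMND5B on the other strand. NOP10 (chr15:34339159-34343180, minus strand), the smallest core protein, went the other way with TMM and showed the largest rise of the set, although it was at -0.31 on the leukocyte scale. It was at 10.8, 13.0 and 12.5 CPM in NC and at 21.0, 23.6 and 23.2 CPM in KD (0.90 ± 0.077, edgeR adjusted p = 1.11e-10). The lowest KD library of NOP10 was well above the highest NC library. A ratio within a library does not depend on the scaling: NOP10 per kilobase was 0.146 ± 0.016 of DKC1 in NC and 0.554 ± 0.051 of DKC1 in KD (mean ± SD, n = 3 each).

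**Figure D3:**
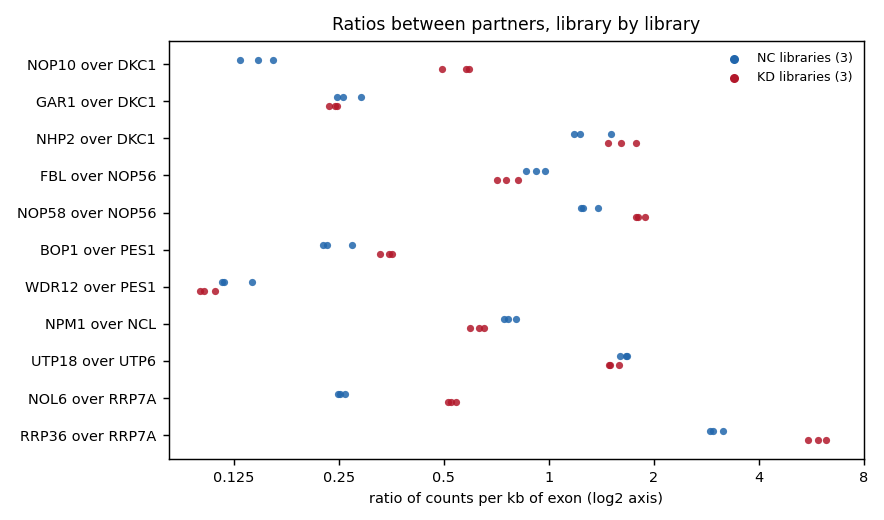
Ratio of counts per kilobase of exon between partner proteins (horizontal axis, log2 axis) for 11 pairs (vertical axis) in each of the 3 NC and 3 KD libraries (points). In 10 pairs the groups do not overlap, and NOP10 over DKC1 moves most, from 0.146 to 0.554. NHP2 over DKC1 overlaps. No such share was computed for pairs of other genes.

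These ratios were computed for 11 pairs of partners, and the groups did not overlap in 10. With 3 libraries against 3, a two-sided exact permutation test cannot go below p = 0.10, which was the value for each of those 10 (0.11 after Benjamini-Hochberg adjustment over the 11), so no ratio can pass such a test. NHP2 over DKC1 gave p = 0.20 in the same exact permutation test. No share of pairs without overlap was computed for other genes. Among single tested genes the groups' CPM did not overlap for 78.0%, so that groups lying apart are common in these libraries.

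Among the first factors to bind the nascent precursor, the 3 UTP-A subunits that the set holds all fell. The share of all tested genes that were lower was 40.3% with TMM and 83.5% on the leukocyte scale. UTP-A sits on the 5' external spacer and is also needed for the transcription of the precursor. NOL11 (chr17:67717931-67744531, plus strand) was at 75.9, 74.6 and 73.5 CPM in NC and at 38.2, 36.1 and 39.4 CPM in KD (-0.98 ± 0.046, edgeR adjusted p = 8.07e-16). UTP4 (chr16:69131291-69231130, plus strand) was at 31.2, 29.6 and 30.3 CPM in NC and at 19.3, 20.4 and 19.0 CPM in KD (-0.63 ± 0.059, edgeR adjusted p = 5.56e-10). In both genes all KD libraries lay below all NC libraries. UTP15 fell as well (-0.54 ± 0.059).

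Of UTP-B, the complex that joins next, the set holds 2 subunits, and neither passed the test with TMM. UTP6 was at 186, 181 and 192 CPM in NC and at 199, 195 and 180 CPM in KD, so that the groups overlapped (0.04 ± 0.044, edgeR adjusted p = 0.433). UTP18 was at 132, 128 and 130 CPM in NC and at 126, 123 and 120 CPM in KD (-0.08 ± 0.040, edgeR adjusted p = 0.0831). Its groups did not overlap, but by a narrow margin, and it passed without NC replicate 2 (edgeR adjusted p = 0.0409). With library sizes alone both were lower, UTP6 at -0.15 (edgeR adjusted p = 0.00118) and UTP18 at -0.26 (edgeR adjusted p = 7.00e-07). The UTP-B subunits outside the set, looked up after their values were seen, were not alike. PWP2 (-1.11 ± 0.102), WDR3 (-0.48 ± 0.040) and TBL3 (-0.31 ± 0.098) fell with TMM, and WDR36 did not pass (0.13 ± 0.067, edgeR adjusted p = 0.0933).

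The 3 factors of UTP-C were split, with 2 higher and 1 lower with TMM and all 3 lower on the leukocyte scale. Of all tested genes 36.2% were higher and 40.3% lower with TMM, and 83.5% were lower on the leukocyte scale. RRP7A (chr22:42508344-42519796, minus strand) was at 85.6, 86.8 and 88.6 CPM in NC and at 58.2, 61.1 and 55.6 CPM in KD (-0.58 ± 0.044, edgeR adjusted p = 1.27e-11). RRP36 (chr6:43021623-43034156, plus strand) was at 106, 101 and 101 CPM in NC and at 142, 133 and 129 CPM in KD (0.39 ± 0.044, edgeR adjusted p = 1.55e-08; -0.82 on the leukocyte scale). The groups of these 2 genes lay apart in opposite directions.
NOL6 (chr9:33461353-33473930, minus strand), the human counterpart of yeast Utp22, was at 22.3, 23.0 and 24.2 CPM in NC and at 33.2, 33.0 and 30.6 CPM in KD (0.48 ± 0.059, edgeR adjusted p = 7.18e-08; -0.73 on the leukocyte scale). Within libraries, NOL6 per kilobase was 0.253 ± 0.006 of RRP7A in NC and 0.527 ± 0.015 of it in KD. RRP7A is uncertain in part: 33.9% of its exon bases lie in SERHL on the other strand, and its pseudogene copy RRP7BP held 873, 920 and 875 counts in NC and 336, 289 and 301 in KD.

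The other 13 factors of the SSU processome and of the pre-40S particle had 8 lower, 2 higher and 3 that did not pass with TMM. Of all tested genes 40.3% were lower and 36.2% higher with TMM. On the leukocyte scale all 13 were lower, as were 83.5% of all tested genes. NOL7 (chr6:13615335-13632739, plus strand), an SSU processome protein, was at 303, 295 and 304 CPM in NC and at 113, 119 and 109 CPM in KD. This was a log2 fold change of -1.41 ± 0.042 (edgeR adjusted p = 1.00e-19), and the groups were far apart. UTP20 (chr12:101280105-101386618, plus strand), a very long repeat protein, was at 44.2, 41.6 and 45.7 CPM in NC and at 22.5, 21.4 and 23.5 CPM in KD (-0.96 ± 0.057, edgeR adjusted p = 6.04e-14). Every KD library of UTP20 was lower than every NC library.
Smaller falls were measured for UTP14A (-0.71 ± 0.045), UTP11 (-0.54 ± 0.046), NOP14 (-0.42 ± 0.054), RRP9 (-0.28 ± 0.060), a protein specific to the U3 particle, NOL10 (-0.27 ± 0.042) and UTP14C (-0.12 ± 0.043). UTP14C, a retrocopy of UTP14A, cannot be read by itself: all of its exon bases lie in exons of ALG11 on the same strand. It also lost its call without KD replicate 2 (edgeR adjusted p = 0.0683) and without KD replicate 3 (edgeR adjusted p = 0.0616). NOL7 shares 23.8% of its exon bases with RANBP9, and NOP14 shares 20.7% with its antisense gene NOP14-AS1.
UTP23, which releases the snoRNA snR30 in yeast, was at 55.7, 52.8 and 58.9 CPM in NC and at 74.1, 73.8 and 74.2 CPM in KD (0.41 ± 0.046, edgeR adjusted p = 1.48e-08; -0.80 on the leukocyte scale). NOP9 (chr14:24299850-24309124, plus strand), an RNA-binding protein of pre-18S rRNA, was at 50.4, 49.7 and 50.4 CPM in NC and at 67.2, 63.2 and 59.9 CPM in KD (0.34 ± 0.047, edgeR adjusted p = 6.29e-07; -0.87 on the leukocyte scale). NOP9 is uncertain in part, since 30.6% of its exon bases are shared, 26.1% with CIDEB on the other strand, which was itself at 0.38 ± 0.059. UTP23 is uncertain in part too, since 13.1% of its exon bases are shared on the other strand, mostly with RAD21. RAD21 was itself at 0.35 ± 0.041, and EIF3H, which shares the rest, at 0.16 ± 0.040. RAD21 held at least 17555 counts in every library, and UTP23 at most 2927. In UTP23 and NOP9 the KD libraries were above all NC libraries. UTP3 (0.08 ± 0.043), UTP25 (0.11 ± 0.052) and RRP12 (-0.09 ± 0.056) did not pass, and their groups overlapped. Each passed without 1 of the libraries: UTP3 without NC replicate 3 (edgeR adjusted p = 0.0183), UTP25 without NC replicate 1 (edgeR adjusted p = 0.0101), and RRP12 without NC replicate 2 (edgeR adjusted p = 0.00928) or KD replicate 1 (edgeR adjusted p = 0.0338). With library sizes alone RRP12 (-0.28, edgeR adjusted p = 1.14e-05) and UTP3 (-0.10, edgeR adjusted p = 0.0184) were lower. UTP25 did not pass there (-0.08, edgeR adjusted p = 0.166).

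**Figure D4:**
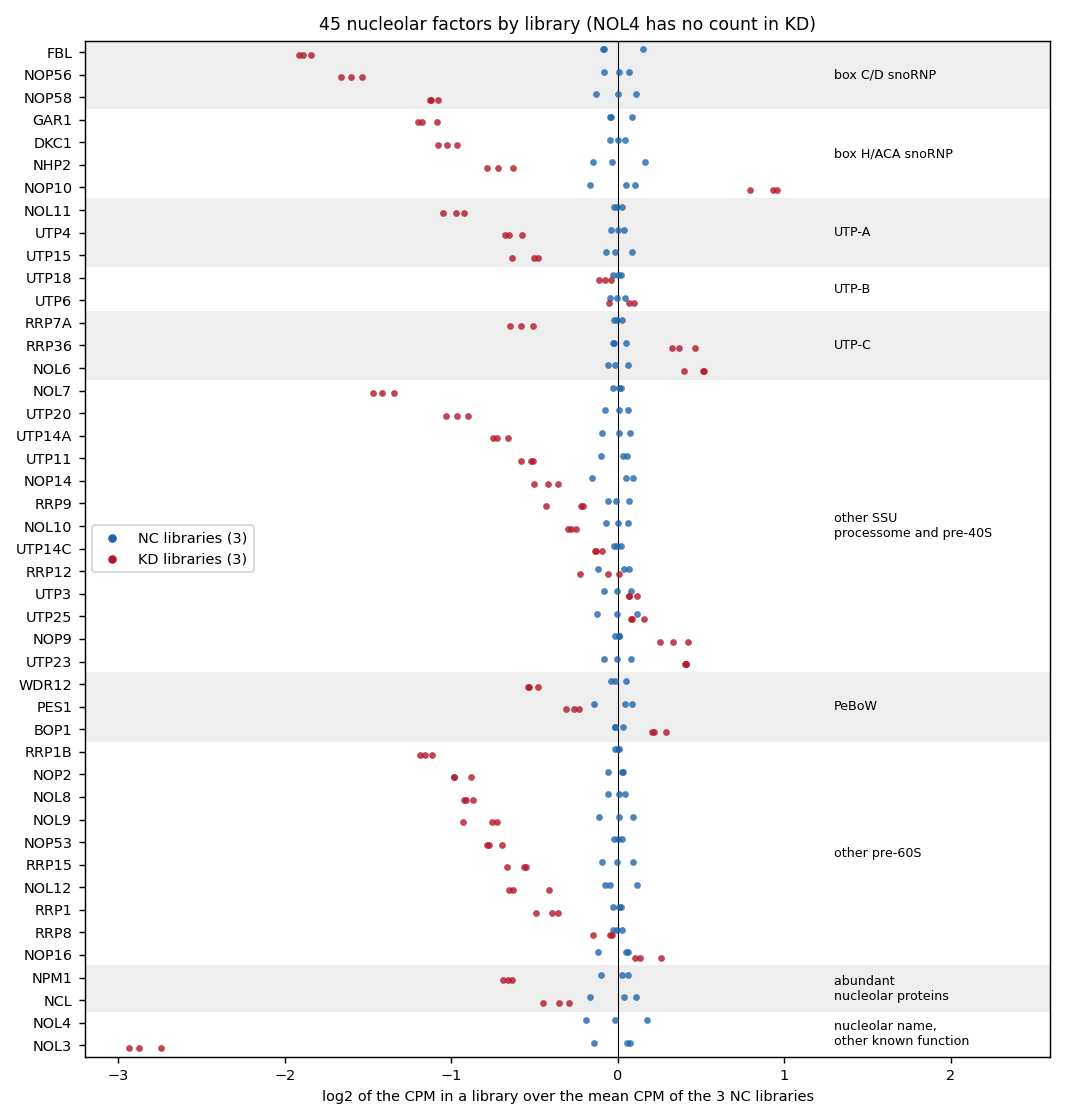
Level of each of the 45 factors (vertical axis, grouped by role) in each library, as the log2 of its TMM-scaled CPM over the mean of the 3 NC libraries (horizontal axis), with NC libraries in blue and KD libraries in red. The KD points of the box C/D proteins lie well to the left, with log2 fold changes from -1.11 to -1.88, while those of NOP10, NOL6, RRP36, UTP23, NOP9, BOP1 and NOP16 lie to the right, of which NOP16 is below 0 with library sizes alone and all 7 are below 0 on the leukocyte scale.

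On the 60S side, the 3 proteins of the PeBoW complex, which is needed to process the 32S precursor, went in both directions by small amounts. WDR12 (chr2:202874261-203014798, minus strand) was at 73.4, 77.9 and 74.7 CPM in NC and at 51.8, 52.1 and 54.2 CPM in KD (-0.52 ± 0.044, edgeR adjusted p = 1.02e-10). PES1 (chr22:30576625-30607083, minus strand) was at 296, 260 and 304 CPM in NC and at 244, 239 and 231 CPM in KD (-0.27 ± 0.049, edgeR adjusted p = 3.14e-05). In these 2 genes the KD libraries were all lower. BOP1 was at 58.1, 59.99 and 58.1 CPM in NC and at 67.9, 72.0 and 68.4 CPM in KD (0.24 ± 0.044, edgeR adjusted p = 2.31e-05). The groups of all 3 lay apart, but BOP1 did not pass with library sizes alone (0.05, edgeR adjusted p = 0.293) and was at -0.97 on the leukocyte scale.

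The other 10 pre-60S factors had 8 lower and 1 higher with TMM, beside 40.3% lower and 36.2% higher of all tested genes. All 10 were lower on the leukocyte scale, as were 83.5% of all tested genes. RRP1B (chr21:43659560-43696079, plus strand), a paralog of RRP1, was at 177, 175 and 178 CPM in NC and at 77.7, 79.1 and 81.7 CPM in KD (-1.15 ± 0.040, edgeR adjusted p = 1.66e-18). NOL8 (chr9:92297358-92325636, minus strand) was at 175, 167 and 179 CPM in NC and at 95.0, 92.4 and 91.6 CPM in KD (-0.90 ± 0.041, edgeR adjusted p = 4.05e-16). Neither gene shares an exon base with another gene of the table, and in both the NC and KD libraries lay far apart. The paralog RRP1 was at -0.41 ± 0.042, and the difference between the paralogs was not tested.
Among the enzymes of this group, 2 fell and 1 did not pass. NOP2, the 5-methylcytosine methyltransferase of 28S rRNA, was at -0.95 ± 0.045, with 54.4% of its exon bases shared with another gene on the same strand. NOL9, the polynucleotide kinase that acts on the internal spacer, was at -0.80 ± 0.093. RRP8, which methylates a base of 28S rRNA, did not pass (-0.08 ± 0.055, edgeR adjusted p = 0.208), although its groups did not overlap. With library sizes alone RRP8 was lower (-0.26, edgeR adjusted p = 0.000343). NOP53, which guides the exosome to the pre-60S particle, fell (-0.75 ± 0.041), as did RRP15 (-0.59 ± 0.048) and NOL12 (-0.56 ± 0.061), which shares 22.0% of its exon bases with another gene on the same strand.
NOP16 (chr5:176383946-176388927, minus strand) was at 59.6, 52.7 and 59.2 CPM in NC and at 68.4, 61.4 and 62.7 CPM in KD (0.17 ± 0.052, edgeR adjusted p = 0.00581). The groups lay close together. It was at -0.02 with library sizes alone and at -1.04 on the leukocyte scale, and did not pass without NC replicate 2 (0.11, edgeR adjusted p = 0.0679). Of the NOP16 exon bases 18.6% are shared on the other strand, 12.3% with ARL10 (-0.57 ± 0.059) and 6.31% with HIGD2A (0.36 ± 0.141).

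The bulk proteins of the nucleolus both fell, as did 40.3% of all tested genes with TMM. NPM1 (chr5:171387116-171411810, plus strand) was at 4882, 4364 and 4765 CPM in NC and at 2955, 3013 and 2902 CPM in KD (-0.66 ± 0.049, edgeR adjusted p = 7.09e-12). NCL (chr2:231453531-231483641, minus strand) was at 7061, 5826 and 6712 CPM in NC and at 5343, 5120 and 4783 CPM in KD (-0.36 ± 0.060, edgeR adjusted p = 1.08e-05). In both genes the groups did not overlap, though NC replicate 2 came close to the KD libraries for NCL.
Per kilobase of exon, NCL at 733 ± 71.4 CPM and NPM1 at 562 ± 32.7 CPM had the highest levels of the 45 genes in NC, ahead of NOP14 (149 ± 13.2) and NOL7 (127 ± 2.19). NCL and NPM1 together made up 68.0% of the counts of the 45 genes in NC and 68.9% in KD. The exon length in the table joins all annotated exons of a gene, so that levels per kilobase are low for genes with long rare exons. The 45 genes took 1.66% to 1.83% of all counts in the NC libraries and 1.07% to 1.11% in the KD libraries.
NPM1 has many processed copies. The 49 rows named as NPM1 pseudogenes held counts equal to 1.45% to 1.64% of those of NPM1 in NC and 3.16% to 3.42% in KD. NPM1P7 alone went from 1421, 1317 and 1635 counts to 3262, 3021 and 2917, against the direction of NPM1, whereas NPM1P27 went from 996, 882 and 1112 counts to 523, 512 and 482. Reads of such copies can be exchanged with the parent gene, so that their levels are uncertain.

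Within the set, shares of the total changed by complex in a way that no scaling can alter. On counts per kilobase, the box C/D proteins were 6.96 ± 0.136% of the 45 genes' sum in NC and 3.62 ± 0.081% in KD (mean ± SD, n = 3 each). The 2 UTP-B subunits of the set went from 2.98 ± 0.112% to 4.12 ± 0.016%, the 3 of UTP-C from 2.51 ± 0.112% to 4.13 ± 0.070% and PeBoW from 3.33 ± 0.052% to 4.15 ± 0.061%. The pair NCL and NPM1 summed to 49.8 ± 1.38% and 50.5 ± 0.394%, less than the spread between libraries apart. Taken singly, their shares moved in opposite directions, and the groups did not overlap. NCL went from 28.1 ± 1.27% to 31.0 ± 0.759% and NPM1 from 21.6 ± 0.158% to 19.4 ± 0.462%.

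Symbols of the NOL series also took in 2 genes that are not known as ribosome assembly factors, and these had the largest falls of the 45. NOL3 (chr16:67170154-67175737, plus strand), better known as the apoptosis repressor ARC, was at 16.6, 14.3 and 16.4 CPM in NC and at 2.36, 2.07 and 2.15 CPM in KD (-2.85 ± 0.109, edgeR adjusted p = 1.01e-17). NOL4 (chr18:33851100-34224952, minus strand), whose transcript is known mainly from neural tissue, had 114, 86 and 107 counts in NC and no count in any KD library. With the KD group set at 3 counts in all, NOL4 was at least 94.1-fold lower in KD, a bound that covers counting error only and takes each count as an independent fragment. Without these 2 genes the median log2 fold change of the other 43 was -0.54, against -0.05 for all tested genes. Of the 43, 30 fell with TMM, beside 40.3% of all tested genes. In the same libraries NEFM, a neurofilament gene of the HEK293-type and neural list, had a mean of 1595 CPM over the NC libraries and of 0.390 CPM over the KD libraries. It was picked after its values were seen, and its part in the fall of NOL4 was not tested.

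Other ribosome assembly genes were taken from lists by function that are not part of the set. Of 113 tested, 81 were lower, 15 higher and 17 did not pass with TMM, beside 40.3% lower and 36.2% higher of all tested genes. Their median log2 fold change was -0.37, against -0.05 for all tested genes. The remaining SSU processome factors had 23 lower and 4 higher of 31 (median -0.34), and the smallest p-values were those of ESF1 (-1.27 ± 0.048), ABT1 (-3.26 ± 0.113) and WDR75 of UTP-A (-1.10 ± 0.058). The late pre-40S factors had 5 lower, 2 higher and 4 not passed of 11, and their median of -0.06 was close to that of all genes. The smallest p-values there belonged to the kinase RIOK1 (-1.64 ± 0.042), BUD23 (-1.15 ± 0.047), the 18S rRNA 7-methylguanosine enzyme, and the nuclease NOB1 (-0.52 ± 0.049), while the kinases RIOK2 and RIOK3 were the 2 that were higher with TMM and lower on the leukocyte scale. The remaining pre-60S factors had 32 lower and 8 higher of 44 (median -0.30), with PAK1IP1 (-1.49 ± 0.055), LAS1L (-1.13 ± 0.043) and NVL (-1.06 ± 0.043).
RNA polymerase I subunits and factors had 10 lower and 0 higher of 13 (median -0.36), with POLR1H (-1.83 ± 0.104), POLR1F (-1.03 ± 0.063) and POLR1E (-0.70 ± 0.066). The nuclear exosome, which trims pre-rRNA, had 11 lower and 1 higher of 14 (median -0.59), with EXOSC9 (-1.23 ± 0.043), DIS3 (-1.11 ± 0.041) and EXOSC8 (-1.66 ± 0.071). On the leukocyte scale, where 83.5% of all tested genes were lower, all members of these 5 lists were lower, and with library sizes alone the higher members numbered 1, 0, 2, 0 and 1 in the order given.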

How the data were processed

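The authors deposited raw counts, whole numbers with no normalization, for 61267 genes in 6 libraries (3 NC, 3 KD), with exon coordinates and exon lengths (bases per gene) beside the deposited counts. The submitters' processing notes name fastp version 0.23.0 and the build GRCh38. Which aligner, counter and annotation were used, and whether strand was, are details not given in the sources used here, so that reads in exons shared with an antisense gene cannot be assigned. Even numbers made up 67.8% to 70.3% of counts in the range 1 to 20, and 50.2% to 51.4% of larger ones over 1000, so that small counts may hold fewer fragments than their number. No pair of libraries within a group held identical counts (chi-square per degree of freedom 3.24 to 6.46).

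KD was compared with NC over all 21905 genes that passed filterByExpr with the quasi-likelihood test of edgeR 4.0.16 in R 4.3.3 (TMM, robust), two-sided, with Benjamini-Hochberg adjustment over all of them and a threshold of 0.05. SEs were derived from the fold change and the F statistic, and values after ± beside a log2 fold change are such SEs. The steps were tested on simulated data of 21413 genes, with 50 genes changed by each fold, in both directions alike. At 1.25-fold 64% of them were recovered and at 2-fold 98%, and 15 unchanged genes were called. With so few genes changed, the simulation cannot check the choice of scaling. Members, role lists, marker lists, the 80 leukocyte-restricted genes (79 tested) and the other assembly genes were chosen with earlier results of these data known: the rule for the members reads symbols only, but the choice of this gene family was made with those results in view. Values in every library are given for the 2 members of each role with the smallest p, all members that rose, the 5 largest falls and members at 0 in a group. Fold changes of the other members that fell, pseudogenes and overlapping genes were added after their values were seen, so that every member is accounted for. As alternatives, libraries were scaled by DESeq2 size factors, by library sizes alone or on the leukocyte scale. Others were no filter, a 1 CPM mean filter, DESeq2 1.42.0, limma-voom (limma 3.58.1), a fit that is not robust, a replicate block, each library left out, and a threshold of 0.01. Promoters came from the RefSeq table, whose windows for 25 of 45 starts continued into a GENCODE transcript in the forward direction and 0 in the reverse.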

Additional observations from a re-analysis of the deposited data

How the results depend on the processing

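The count of 32 factors lower in KD ran from 31 to 45 and that of 7 higher from 0 to 8 over the alternatives applied to all 45. On the leukocyte scale 0 were higher. Another alternative, chosen after seeing the data, took the 19 factors whose exons share no base with another gene. Of these 19, 13 were lower and 2 higher, beside 40.3% lower and 36.2% higher of all tested genes. These counts are smaller than 32 and 7 as fewer genes were counted. Leaving out each library gave 31 to 34 lower, 6 to 8 higher and 16288 to 16661 of all genes called, against 16758. DESeq2, DESeq2 size factors, limma-voom and the fit without robust estimation changed no call of a single factor.

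Among the 45 factors, METTL1, WDR4 and MYC, signs changed under 2 of the alternatives. With library sizes alone UTP25 was at -0.077, UTP6 at -0.15, UTP3 at -0.10 and NOP16 at -0.020. On the leukocyte scale UTP25 was at -1.10, NOP9 at -0.87, NOP10 at -0.31, UTP6 at -1.17, UTP3 at -1.13, NOP16 at -1.04, RRP36 at -0.82, UTP23 at -0.80, BOP1 at -0.97, NOL6 at -0.73 and MYC at -0.90. These scalings shift genes with counts in both groups nearly alike. NOL4, with no count in KD, moved less, from -9.62 with TMM to -10.32 on the leukocyte scale.

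With the replicate number as a replicate block 32 factors were lower and 8 higher, UTP25 being added (0.11, edgeR adjusted p = 0.0444), and 16428 of all genes were called. The deviations of libraries with the same number correlated at 0.015, 0.006 and -0.014, so that the numbers give no sign of pairing, and the block changed no other call of a factor. Genes of few counts such as NOL4 are limited by depth to a bound.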
